A study of Mus musculus with 4 samples.

Results

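The 10 immune checkpoint ligands Cd274, Pdcd1lg2, Cd47, Lgals9, Tnfrsf14, Pvr, Nectin2, Cd276, Cd80 and Cd86 were followed in MC38 cells, a mouse colon carcinoma line. They were picked by name, as the rows of the deposited table whose NCBI gene ID belongs to 1 of these symbols, and all 10 were found among its 27179 genes. The cells were wild type (WT), were given no agent or IFN-γ, and were kept under normoxic or hypoxic conditions. This makes 4 conditions, namely untreated normoxia, untreated hypoxia, IFN-γ normoxia and IFN-γ hypoxia. IFN-γ was used at 5 ng/mL for 24 h in most of the study's experiments, with oxygen at 20% for normoxia and 1.5% for hypoxia, and the length of the hypoxia is not given in the sources used here. Each condition was a single culture sequenced as 1 library, so no value below has a replicate, and the 4 cultures stand for 1 cell line grown without immune or stromal cells.

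Checkpoint ligands are proteins that tumor cells, antigen-presenting cells and other tissue cells show on their surface, or secrete, and that restrain or tune the T cells, natural killer cells and macrophages carrying their receptors. CD274 (PD-L1) and PDCD1LG2 (PD-L2) bind PD-1, CD47 binds SIRPα and protects cells from being engulfed, and PVR and NECTIN2 bind the inhibitory receptor TIGIT and the activating receptor CD226. IFN-γ, which activated T cells and natural killer cells secrete, acts through JAK kinases on gene elements such as the interferon-stimulated response element, while low oxygen stabilizes HIF proteins, which bind the hypoxia response element.

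The letters upstream of the start site are shown for the ligands in which such an element was found, and for Cd274, the ligand on which IFN-γ studies in tumor cells mostly center. RefSeq promoters of the assembly GRCm38.p6, the same build as the mm10 named in the submitters' processing notes, held entries for 8 of the 10 ligands, with none for Pvr and Cd86. The interferon-stimulated response element was searched as GAAA, any 2 bases and GAAA, and the gamma-activated sequence as TTC, any 3 bases and GAA. The hypoxia response element was searched as ACGTG. The search covered both strands of the 250 bases before a single start per ligand, called the start below. Capitals mark the matched element in the 30-base windows that follow, each written 5′ to 3′ on the strand of its gene.
Tnfrsf14, interferon-stimulated response element, chr4:154928122-154928151, minus strand: ctattttttcTTTCATTTTCacttttcctt
Lgals9, interferon-stimulated response element, chr11:78984960-78984989, minus strand: tgacatcagcTTTCTTTTTCtctagacact
Cd47, hypoxia response element, chr16:49855566-49855595, plus strand: tgaggctggcgtCACGTcaacgagcagagg
Cd274, the 47 bases next to the start that no annotated exon covers, no element, chr19:29367391-29367437, plus strand: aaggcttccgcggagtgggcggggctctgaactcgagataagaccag

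The element of Tnfrsf14 lay 64 to 55 bases before the start, in a stretch that longer annotated transcripts of the same gene include as exon, and that of Lgals9 lay 55 to 46 bases before it. Both read as the reverse complement of the searched letters. The Cd47 element, also matched on the opposite strand, lay 76 to 72 bases before the start. None of the 3 elements was found in the 250 bases searched for Cd274, Pdcd1lg2, Nectin2, Cd276 or Cd80. The windows of Cd274, Cd47 and Cd80 ended at 29367437, 49855653 and 38458932. The annotated genes begin further upstream, at 29362107, 49851328 and 38457430, and the bases before those starts were not searched. The Tnfrsf14 window covered 154928078 to 154928327 on the minus strand. Its annotated gene also begins further upstream, at 154928620, and the bases before that start were not searched. Among all 27025 promoters of this length, 3.06% held the interferon-stimulated response element, 7.11% the gamma-activated sequence and 16.4% the hypoxia response element. A match therefore describes the letters of these windows and no more. A missing match covers these exact letters in the searched windows only, and near matches were not searched.

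The libraries held 34302971 to 34537939 counts, and 7 of the 10 ligands had enough of them to be tested. In every library more genes held exactly 2 counts (1058 to 1091) than exactly 1 (475 to 534), and 64.0% to 66.3% of counts from 1 to 10 were even against 49.9% to 50.6% of counts of at least 1000. Counting both reads of a pair would leave such an excess, so the counting intervals below were computed from the counts divided by 2, which makes them 1.41 times wider, and whether the reads were counted in this way was not tested. All 10 of the listed oxygen-responsive genes (Car9, Egln3 and others) rose with hypoxia, where 8.21% of all tested genes did. IFN-γ raised Irf1, a transcription factor it induces, by 2.43 on the log2 scale. Both are in the direction of the labels, and the lists were chosen with earlier results of these data known. Of 15 immune cell markers, 9 had at most 3 counts in every library, with Cd8a, Ms4a1, Ncr1, Itgam and Adgre1 at 0. Gm49368 on the same strand covers 68.7% of the exon bases of Itgam, so the 0 counts of Itgam do not by themselves show absence. The summed level of the 15 was 18.5 CPM (counts scaled to the library total), 20.9, 19.9 and 18.5 CPM in the order of conditions above. Most of it came from Cd14, and Lyz2 had 69 to 96 counts. Among 9 colon epithelial markers, 4 had at most 3 counts in every library. Of these, Cdh1 and Cdx2 were at 0 throughout and Epcam had 2 counts, in the untreated normoxic library only. These markers of the labelled cell type were thus absent or nearly so. Others were counted in every library, with Krt8 at 90, 56, 56 and 48 counts in the order of conditions above. Krt20 had 12, 18, 14 and 22 counts, and Vil1 had 7, 13, 17 and 13. The summed epithelial level was 3.7, 3.65, 4.4 and 5.98 CPM in the same order, higher in both IFN-γ libraries with Cdh17 at 15, 21, 62 and 120 counts, and its part in the ligand changes was not tested. Since the RNA is from bulk cultures, more expressing cells and more RNA per cell cannot be told apart.

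Cd274, on chromosome 19 (29362107 to 29388095, plus strand), was counted 447 times in untreated normoxia, 457 times in untreated hypoxia, 1658 times in IFN-γ normoxia and 2191 times in IFN-γ hypoxia. These are levels of 12.9, 13.2, 48.4 and 64.0 CPM. The untreated libraries were alike, and both IFN-γ libraries lay far above them, with the hypoxic one highest. Of the exon bases of Cd274, 14.1% are also covered by an exon of AC119228.1 on the opposite strand. Pdcd1lg2, on the same chromosome (29410919 to 29472927, plus strand) and the other PD-1 ligand, had 0 counts in both untreated libraries, 2 in IFN-γ normoxia and 1 in IFN-γ hypoxia. All of these are at or under the floor of 3 counts, equal to 0.0869 to 0.0875 CPM, so no Pdcd1lg2 change was detectable at this depth.

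Tnfrsf14 encodes HVEM, which engages the receptors BTLA and CD160 on lymphocytes. Its counts were 29 in untreated normoxia, 42 in untreated hypoxia, 194 in IFN-γ normoxia and 233 in IFN-γ hypoxia, or 0.838, 1.22, 5.66 and 6.8 CPM. It had the fewest counts of the tested ligands in every library, and no IFN-γ library overlapped an untreated one. Lgals9 encodes galectin-9, a sugar-binding protein whose partners include TIM-3, the product of Havcr2. It was counted 2622, 2301, 3193 and 3317 times in the same order, at 75.7, 66.6, 93.1 and 96.8 CPM. Here the lowest library was untreated hypoxia, and both IFN-γ libraries exceeded both untreated ones. How many of all tested genes separate by IFN-γ, as Cd274, Tnfrsf14 and Lgals9 did, was not counted.

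Cd47 had 1590, 1885, 2004 and 2429 counts, or 45.9, 54.5, 58.4 and 70.9 CPM, a stepwise order in which each stimulus alone lay between the untreated normoxic culture and the culture given both. Pvr had 2005, 3181, 1780 and 3212 counts, or 57.9, 92.0, 51.9 and 93.8 CPM, and both hypoxic libraries were above both normoxic ones whatever the IFN-γ state. Nectin2, on the same chromosome as Pvr and sharing receptors with it, had 472, 555, 362 and 404 counts, or 13.6, 16.1, 10.6 and 11.8 CPM. Both of its IFN-γ libraries lay below both untreated ones. Cd276 (B7-H3), a B7 family protein whose receptor is not settled, had 271, 268, 330 and 360 counts, or 7.83, 7.75, 9.62 and 10.5 CPM, with the IFN-γ libraries on top by a small margin. How many of all tested genes have the orders of Cd47, Pvr, Nectin2 or Cd276 was not counted. An opposite-strand exon (Gm10657) covers 11.4% of the exon bases of Cd276 and another (Gm20512) 3.86% of those of Nectin2, and the strand setting of the counting is not given in the sources used here.

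**Figure D1:**
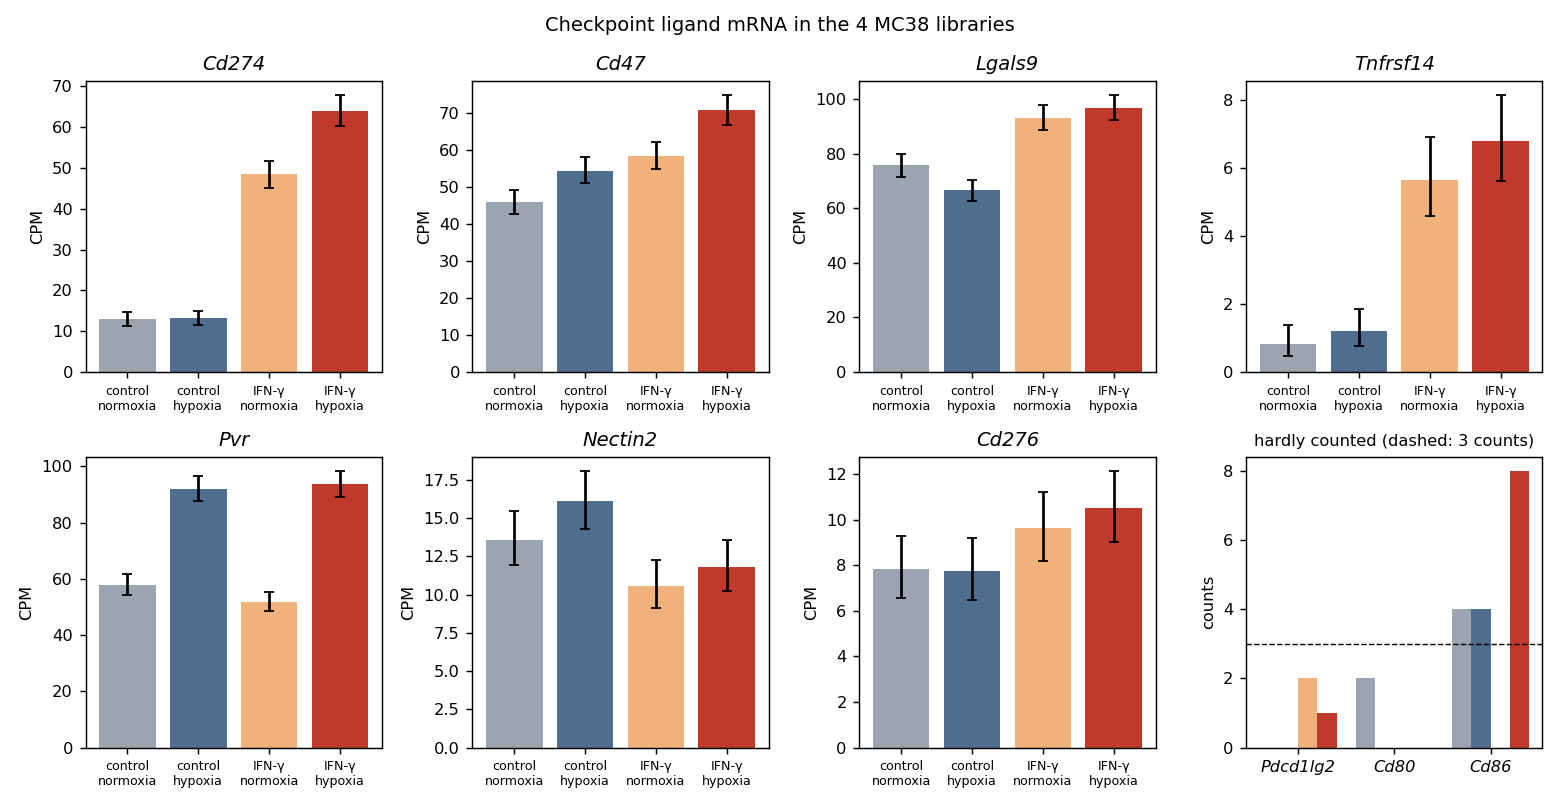
Level of each ligand in the 4 libraries, as CPM on a linear axis from 0 (7 tested ligands, own scale in each panel, bars with 95% counting intervals from the counts divided by 2) or as counts (last panel, colors as in the other panels, dashed line at the floor of 3 counts). Cd274 and Tnfrsf14 step up in both IFN-γ libraries, Pvr in both hypoxic libraries, and Pdcd1lg2, Cd80 and Cd86 hold at most 8 counts.

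Cd80 and Cd86, the B7 ligands through which antigen-presenting cells engage CD28 and CTLA-4, were hardly counted. Cd80 had 2 counts in untreated normoxia and 0 in the other libraries, which is within the floor. Cd86 had 4, 4, 0 and 8 counts, the last equal to 0.234 CPM, so it passed the floor in 3 libraries without an order that follows either stimulus. If both reads of a pair were counted the floor would be 6 counts, and only the 8 counts in IFN-γ hypoxia would pass it.

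To compare ligands with each other, levels were divided by exon length, taken as all annotated exon bases of the gene. On this scale of CPM per kilobase, Lgals9 was the most abundant ligand in every library, at 35.4 in untreated normoxia, 31.2 in untreated hypoxia, 43.6 in IFN-γ normoxia and 45.3 in IFN-γ hypoxia. It made up 56.7%, 47.1%, 51.7% and 45.0% of the summed level of the 10 ligands. Cd274 was the fifth of the 10 in both untreated libraries, at 3.56 and 3.65 CPM per kilobase, and the second in both IFN-γ libraries, at 13.4 and 17.7. Its share of the summed ligand level was 5.71% and 5.52% without IFN-γ and 15.8% and 17.5% with it. Pvr, the second in the untreated libraries at 9.46 and 15.0 CPM per kilobase, was the fourth in IFN-γ normoxia at 8.48 and the third in IFN-γ hypoxia at 15.3. Tnfrsf14 moved from the seventh place (0.582 and 0.845 CPM per kilobase) to the fifth (3.93 and 4.73), past Nectin2 and Cd276.

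Not every neighbor in these orders was separated. Nectin2 exceeded Cd274 by 1.09-fold in untreated normoxia (95% interval 0.908 to 1.32, counting error only), so these 2 ligands did not differ beyond counting there. Nectin2 and Cd276 were likewise not separated in IFN-γ normoxia, at a ratio of 1.15 (0.925 to 1.43), or in IFN-γ hypoxia, at 1.17 (0.956 to 1.44). In IFN-γ hypoxia Cd274 exceeded Pvr by 1.15-fold (1.07 to 1.25). In IFN-γ normoxia Cd47 exceeded Pvr by 1.1-fold (1.0 to 1.2) and Tnfrsf14 exceeded Nectin2 by 1.3-fold (1.01 to 1.68). These intervals take the exon lengths as exact, and which transcripts the cells use was not measured, so such small gaps do not settle an order. Ranks among Pdcd1lg2, Cd80 and Cd86 rest on at most 8 counts and were not separated in any library. The summed level of the 10 ligands was 62.4, 66.1, 84.3 and 101 CPM per kilobase, highest in the culture given both stimuli.

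**Figure D2:**
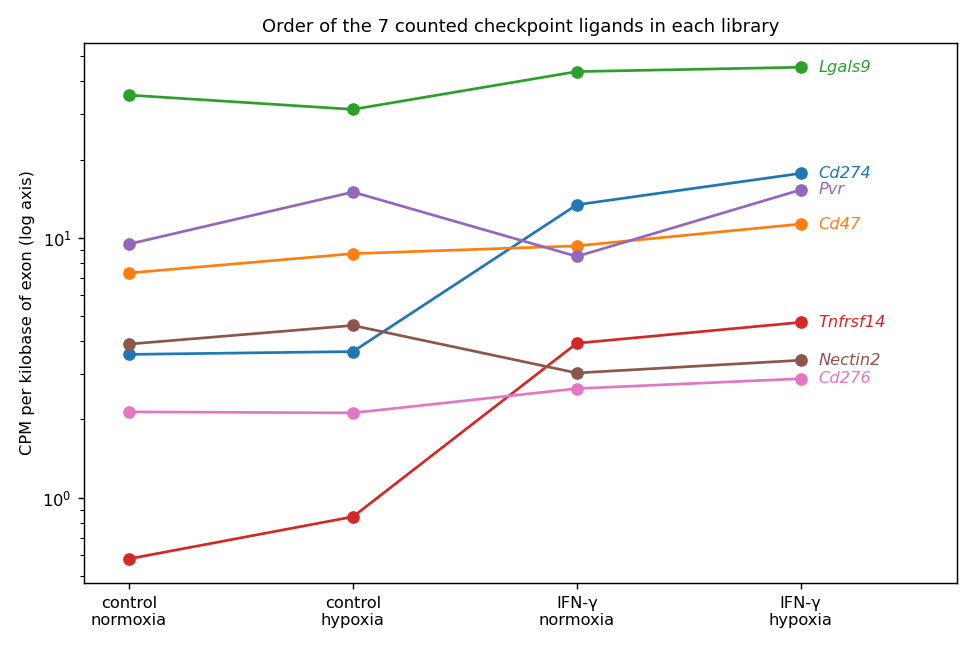
Level of the 7 tested ligands in each library as CPM per kilobase of exon, on a log axis, with 1 line per gene. Lgals9 is at the top throughout, and Cd274 and Tnfrsf14 cross other ligands between the untreated and the IFN-γ libraries.

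The effect of IFN-γ with oxygen held constant was asked of all 4 libraries together in an additive fit, whose error is the departure of the 4 values from additivity and not a spread between replicate cultures. Of the 7 tested ligands, 4 rose (Cd274, Tnfrsf14, Lgals9 and Cd47) and 1 fell (Nectin2), where 4.76% of all 13580 tested genes rose and 1.1% fell. The median log2 change was 0.37 over the 7 ligands and -0.01 over all tested genes. Tnfrsf14 rose most, by 2.60 on the log2 scale (SE 0.225), or 6.08-fold, with an adjusted p of 7.84e-29 (edgeR quasi-likelihood test, Benjamini-Hochberg). Cd274 rose by 2.09 (SE 0.0844), or 4.27-fold, with an adjusted p of 2.46e-130 in the same edgeR test. Among the 7, only these ligands changed by more than 1 on the log2 scale, and 99.5% and 99.2% of tested genes, respectively, had a smaller absolute change. Both kept an adjusted p under 0.05 in all 7 alternative fits. The highest, in edgeR without the other stimulus, was 0.0032 for Tnfrsf14 and 0.000795 for Cd274. The lowest, from DESeq2's Wald test, was 6.45e-10 for Tnfrsf14 and 4.48e-47 for Cd274. The main p-values are thus the most extreme of the fits, at nearly the same log2 changes.

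Lgals9 and Cd47 rose less, by 0.42 (SE 0.0653) and 0.36 (SE 0.0709) on the log2 scale, with adjusted p of 7.16e-09 and 1.12e-05 in edgeR's quasi-likelihood test. These are folds of 1.34 and 1.29, and each was called in 6 of the 7 alternatives. Nectin2 fell by 0.41 on the log2 scale (SE 0.111, edgeR adjusted p = 0.00585), a level 0.754 times that without IFN-γ. This call held in 4 of 7 alternatives and was lost with DESeq2 (adjusted p = 0.749) and with the counts divided by 2 (edgeR adjusted p = 0.0782). Cd276 had nearly the same fitted difference as Cd47, 0.37, but with fewer counts its SE was 0.13 and it did not pass (edgeR adjusted p = 0.0699). For Pvr the IFN-γ difference was -0.06 (SE 0.0672, edgeR adjusted p = 0.827).

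Hypoxia, with IFN-γ held constant, raised 3 of the 7 tested ligands (Pvr, Cd47 and Cd274) and lowered 0 (also 0 at an unadjusted p under 0.05 and with DESeq2), while 8.21% of all tested genes rose and 6.83% fell. The median log2 change was 0.26 over the 7 ligands and 0.0 over all tested genes. Pvr rose by 0.76 on the log2 scale (SE 0.0675), or 1.69-fold, with an adjusted p of 5.35e-27 (edgeR quasi-likelihood test, Benjamini-Hochberg). It was called in all 7 alternatives, at an adjusted p from 3.11e-12 (DESeq2's Wald test) up to 0.0141 (edgeR without the other stimulus). Cd47 rose by 0.26 (SE 0.0709, edgeR adjusted p = 0.00287), a call that 5 of 7 alternatives kept.

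Cd274 also rose with hypoxia in the additive fit, by 0.26 (SE 0.0826, edgeR adjusted p = 0.0144), but only 3 of 7 alternatives kept the call. The pairs of single libraries differed in this respect. In the untreated cultures Cd274 differed by 0.03 on the log2 scale between hypoxia and normoxia (95% counting interval -0.24 to 0.31), and in the IFN-γ cultures by 0.40 (0.27 to 0.54). The first interval includes 0 and the second does not, and the fitted value lies between the 2 ratios. Tnfrsf14 had a larger fitted difference, 0.34, but an SE of 0.213 on its low counts (edgeR adjusted p = 0.321). For Nectin2 the difference was 0.20 (SE 0.111, edgeR adjusted p = 0.239), for Lgals9 -0.06 (SE 0.0653, edgeR adjusted p = 0.602) and for Cd276 0.06 (SE 0.13, edgeR adjusted p = 0.824).

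Pairs of single libraries show the size of each stimulus in each setting, with counting error only and no test. IFN-γ went with 3.74 times as much Cd274 in normoxia (log2 ratio 1.90, 95% interval 1.69 to 2.12) and 4.83 times as much in hypoxia (2.27, 2.07 to 2.49). For Tnfrsf14 the order was the other way, 6.66-fold in normoxia (2.74, 1.95 to 3.66) and 5.54-fold in hypoxia (2.47, 1.81 to 3.23), with wide and overlapping intervals. These 2 ligands were at least 1.5-fold higher in each IFN-γ pair. Of tested genes, 5.61% were so in the normoxic pair and 5.5% in the hypoxic pair, and the share in both pairs was not counted. Lgals9 had log2 ratios of 0.30 (0.19 to 0.40) and 0.54 (0.43 to 0.65), and Cd47 of 0.35 (0.21 to 0.48) and 0.38 (0.25 to 0.50).

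Nectin2 was lower in both IFN-γ pairs, with log2 ratios of -0.37 (-0.66 to -0.08) in normoxia and -0.44 (-0.71 to -0.18) in hypoxia. Cd276 had 0.30 (-0.04 to 0.64) and 0.44 (0.11 to 0.77), the first including 0. In the hypoxia pairs Pvr was 1.59-fold higher without IFN-γ (log2 ratio 0.67, 0.55 to 0.78) and 1.81-fold higher with it (0.85, 0.73 to 0.97), and it was the only ligand at least 1.5-fold higher in either pair, against 6.17% and 6.37% of tested genes. Cd47 was alike in both, at 0.25 (0.11 to 0.39) and 0.28 (0.16 to 0.40). Lgals9 was lower in hypoxia without IFN-γ (-0.19, -0.30 to -0.07) and had an interval around 0 with it (0.06, -0.04 to 0.16).

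**Figure D3:**
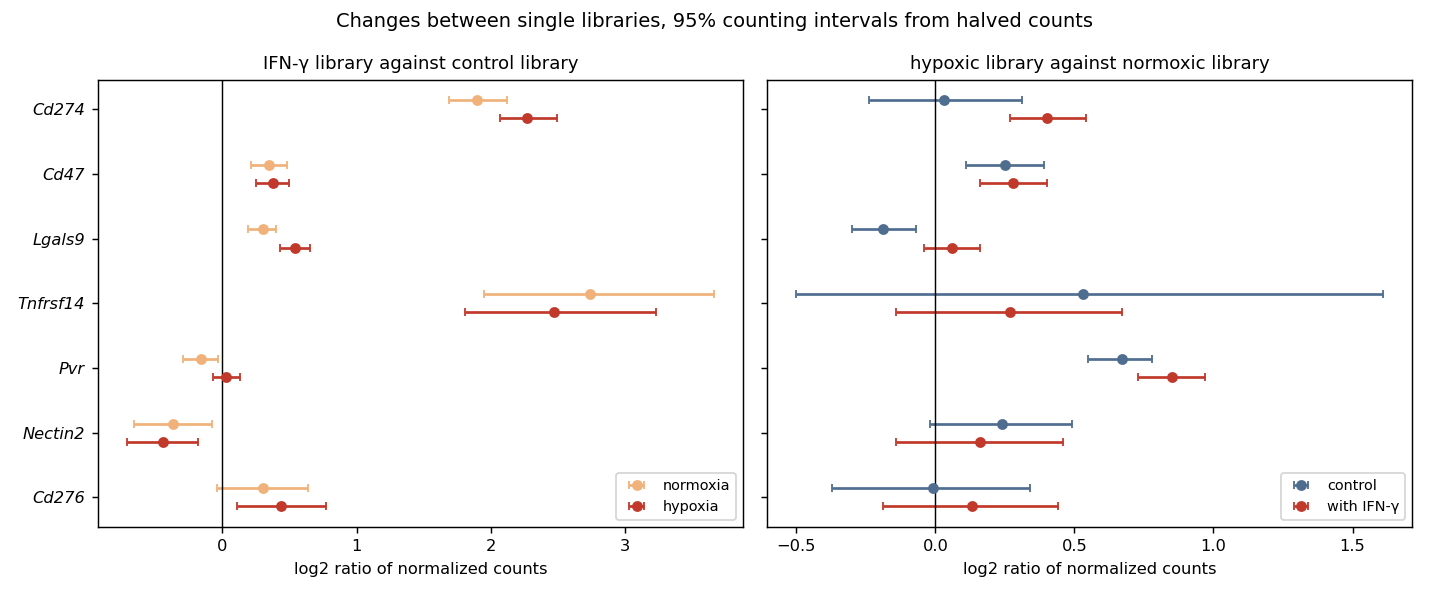
Log2 ratio of normalized counts between single libraries for the 7 tested ligands, IFN-γ against untreated on the left and hypoxia against normoxia on the right (axes of different range), with 95% counting intervals from the counts divided by 2. Cd274 and Tnfrsf14 stand out on the left, Pvr on the right, and the Cd274 hypoxia ratio is near 0 in the untreated pair and 0.40 in the IFN-γ pair.

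In the culture given both stimuli, against the culture given neither, 4 ligands were at least 1.5-fold higher, where 8.32% of tested genes were. Tnfrsf14 was 8.0-fold higher (log2 ratio 3.0, 95% interval 2.23 to 3.92), Cd274 4.95-fold (2.31, 2.10 to 2.52), Pvr 1.62-fold (0.70, 0.58 to 0.81) and Cd47 1.54-fold (0.63, 0.50 to 0.76). In the additive fit Pvr had passed the test for hypoxia, Tnfrsf14 that for IFN-γ, and Cd274 and Cd47 both. Lgals9 (0.35, 0.25 to 0.46) and Cd276 (0.42, 0.10 to 0.76) were higher by less, and Nectin2 had an interval that included 0 (-0.21, -0.49 to 0.07).

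Whether the IFN-γ change was the same at both oxygen levels could not be tested, because no residual degree of freedom remains once the difference is fitted. The log2 IFN-γ change in hypoxia minus that in normoxia was 0.37 for Cd274 (95% counting interval 0.07 to 0.66), 0.24 for Lgals9 (0.09 to 0.39) and 0.18 for Pvr (0.02 to 0.35). For Cd274 the changes with each stimulus alone summed to 1.94 on the log2 scale and the culture with both had 2.31, and for Lgals9 the sum was 0.11 against 0.35. The other ligands had intervals that included 0, at 0.14 for Cd276 (-0.32 to 0.60), 0.03 for Cd47 (-0.15 to 0.21), -0.08 for Nectin2 (-0.46 to 0.31) and -0.26 for Tnfrsf14 (-1.29 to 0.76). Across the 10443 genes counted at least 100 times in each library, the central 95% of this difference ran from -0.36 to 0.40, and all 7 ligands lay inside it. Tnfrsf14, with 29 and 42 counts in the untreated libraries, is not among the 10443 genes, so this range does not serve to judge it. Of the 10443 genes, 20.1% had a counting interval that excluded 0, so such an interval, as for Cd274, Lgals9 and Pvr, was common among genes in general.

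**Figure D4:**
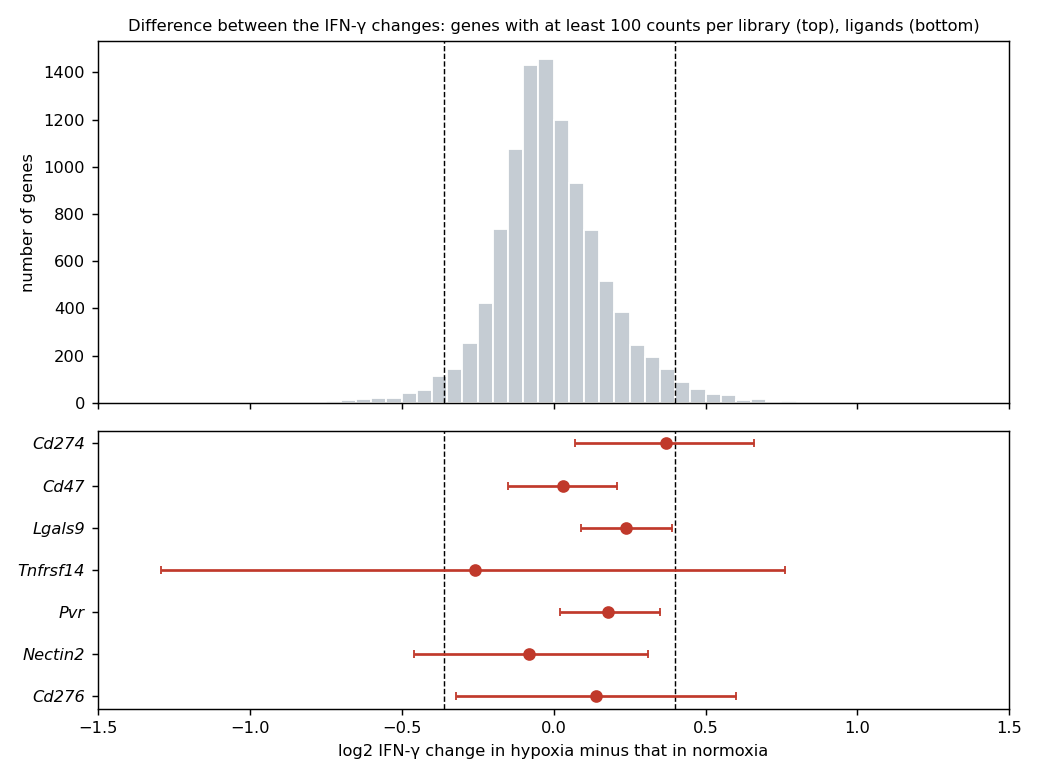
Log2 IFN-γ change in hypoxia minus that in normoxia, as a histogram over the 10443 genes counted at least 100 times in each library (top, bins of 0.05, values beyond 1.5 in the end bins) and for the 7 tested ligands with 95% counting intervals (bottom). Dashed lines mark the central 95% of the genes, -0.36 to 0.40, and the points of all 7 ligands lie between them, with Cd274 nearest to the upper line. Tnfrsf14 has too few counts to be among the genes of the histogram.

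The genes through which these ligands are made and read were called as follows, to be read against the 4.76% of all tested genes that rose and 1.1% that fell with IFN-γ and the 8.21% and 6.83% with hypoxia. The receptor list had 10 of 11 genes in the table and 3 with enough counts to test (Havcr2, Cd160 and Tigit), and 0 were called in either term by edgeR's quasi-likelihood test or by DESeq2, while Havcr2 (0.53) and Tigit (0.25) had an unadjusted p under 0.05 for hypoxia. Pdcd1, the PD-1 gene, had 0 to 4 counts, and Sirpa, Cd226 and Ctla4 had 0 in every library, whereas Tigit had 475 to 623. Of 12 genes that mature or stabilize the ligands, 11 were tested. B3gnt3, a glycosyltransferase that acts on PD-L1, rose with IFN-γ by 0.49 (SE 0.0634) and with hypoxia by 0.47 (SE 0.0634) on the log2 scale, with edgeR adjusted p of 1.16e-12 and 1.69e-11, each call kept in 6 of 7 alternatives. Zdhhc3, a palmitoyltransferase, fell with hypoxia by 0.20 (SE 0.072, edgeR adjusted p = 0.0343), a call kept in 3 of 7 alternatives, and the other 9, with the PD-L1 stabilizer Cmtm6 at 43.8 to 49.9 CPM, were not called.

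The other ligand list held 22 genes, of which 12 were tested and 5 had at most 3 counts in every library. IFN-γ raised 1 of the 12, the costimulatory receptor Cd40 (0.60, SE 0.185, edgeR adjusted p = 0.0253), a call that 0 of 7 alternatives kept, and lowered 1, Lgals1 (galectin-1), which fell by 0.18 (SE 0.0456, edgeR adjusted p = 0.00188) and kept its call in 4 of 7. Over all tested genes IFN-γ raised 4.76% and lowered 1.1%. Hypoxia raised 3, namely Icosl (0.55), Tnfsf9 (0.46) and Lgals3 (0.20), and lowered Lgals1 by 0.21 on the log2 scale, all by the same test at 0.05, where 8.21% of all tested genes rose and 6.83% fell. The Icosl call held in 4 of 7 alternatives and the other 3 in 6 of 7. The median change of these 12 was 0.0 in both terms. In the IFN-γ signalling list of 6 genes, Irf1, Socs1 (a feedback inhibitor, 1.5) and Jak2 (0.56) rose with IFN-γ, against 4.76% of all tested genes, and Ifngr1, a receptor chain, fell by 0.25 on the log2 scale, against 1.1%. The Ifngr1 fall was kept in 1 of 7 alternatives. With hypoxia, Ifngr1 (0.24), Irf1 (0.24), Jak1 (0.29) and Jak2 (0.30) rose, against 8.21% of all tested genes, and alternatives kept these calls in 3, 6, 6 and 5 of 7.

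The genes whose pattern was nearest to that of a ligand were found by the distance between their log2 CPM over the 4 libraries, each centered on its own mean, among 11311 genes averaging at least 50 counts. For Cd274 the nearest were Tap2 (distance 0.116), Tap1 (0.193), Parp14 (0.201), Ifi203 (0.206) and Ube2l6 (0.255). Tap1 and Tap2 form the peptide transporter of MHC class I presentation, and Tap2 had 1478, 1600, 6005 and 7212 counts in the order of conditions above, a small step with hypoxia in the untreated cultures and a larger one with IFN-γ. For Tnfrsf14 the nearest were Sp110 (0.256), Psmb9 (0.265), Irf1 (0.270), A530040E14Rik (0.286) and Ifi205 (0.311). With 4 libraries these distances describe the shape of 4 values and carry no test.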

How the data were processed

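RNA from 4 MC38 cultures, 1 per condition, was poly-A selected and sequenced as strand-specific paired-end libraries. The authors aligned reads with HISAT2 and deposited whole-number counts per gene, without normalization. The submitters' processing notes name featureCounts and mm10. The annotation, the strand setting and the handling of multi-mapped reads are not given in the sources used here. All columns carried a sample name. Symbols, coordinates, exon lengths and promoters came from RefSeq and GENCODE tables of GRCm38.p6, and 25275 of 27179 gene IDs matched a symbol.

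Genes were tested with edgeR (4.0.16 in R 4.3.3) by quasi-likelihood, with TMM factors (0.993 to 1.01), edgeR's filter at a minimum of 10 counts (13580 genes kept) and an additive model of oxygen and IFN-γ, with Benjamini-Hochberg adjustment over all genes and calls at 0.05. With 1 library per condition the spread is the departure from additivity at 1 residual degree of freedom, pooled across genes (coefficient of variation 4.71%). It therefore mixes differences between cultures with any interaction of the stimuli. Log2 ratios of single libraries had 0.5 counts added and carry exact conditional (Clopper-Pearson) 95% intervals, and differences of such ratios carry Poisson intervals. Intervals and the floor of 3 counts cover counting error only. The code was tested on simulated data.

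The ligands and the gene lists were chosen with earlier results of these data known. All 10 ligands are named, as are list members called in either term and, as examples, listed genes that were not. Nearest patterns are the 5 genes closest to Cd274 and to any other ligand with a fitted log2 change of at least 1. Alternatives were DESeq2's size factors, DESeq2's Wald test (1.42.0), total counts in place of TMM, no filter, at least 10 counts in every library, no term for the other stimulus, unadjusted p, an added log2 change of at least 1, 5 counts added in place of 0.5 and, chosen after seeing the data, counts divided by 2.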

Additional observations from a re-analysis of the deposited data

Results flagged for a closer look

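For 3 of the tested ligands the 2 ratios of a stimulus had opposite signs. At least 1 ratio of each had a counting interval that included 0, so a change of direction is not shown, and the differences were not tested. Lgals9 was lower with hypoxia in the untreated pair (log2 ratio -0.19, 95% counting interval -0.30 to -0.07) and had a ratio of 0.06 (-0.04 to 0.16) in the IFN-γ pair, a difference of 0.24. Pvr was lower with IFN-γ in normoxia (-0.16, 95% counting interval -0.29 to -0.03) and had a ratio of 0.03 (-0.07 to 0.13) in hypoxia, a difference of 0.18. Cd276 had a hypoxia ratio of -0.01 in the untreated pair and 0.13 in the IFN-γ pair, a difference of 0.14, and both of its intervals included 0.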

How the results depend on the processing

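Every condition had 1 library, so replicate variation was not measured, leaving out a library leaves no residual degree of freedom and only the single-library ratios, and the fits assume that the stimuli add on the log2 scale. No paired analysis was possible because each group held a single sample. No ligand's difference reversed under any alternative, and with total counts in place of TMM or 5 counts added the single-library ratios and their differences stayed within their counting intervals.

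For each called ligand, every alternative fit gave a higher adjusted p than the main fit. The calls for Cd274 and Tnfrsf14 with IFN-γ and for Pvr with hypoxia held in all 7 alternative fits. Those lost were as follows, and the cause was not tested beyond what each alternative removes. Without a term for the other stimulus, the Cd47 (0.36) and Lgals9 (0.42) rises and the Nectin2 fall (-0.41) with IFN-γ and the Cd274 (0.33) and Cd47 (0.27) rises with hypoxia were no longer called. DESeq2's Wald test lost Nectin2 with IFN-γ (-0.41) and Cd274 (0.24) and Cd47 (0.26) with hypoxia. Omitting the filter lost Cd274 with hypoxia (0.25). Counts divided by 2, an alternative chosen after seeing the data, lost Cd274 with hypoxia (0.29) and Nectin2 with IFN-γ (-0.41).

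Of the ligands, 4 rose with IFN-γ in the main test, but 2 without the other term and 2 with an added log2 change of at least 1, and 1 fell, but 0 with DESeq2, counts divided by 2, no other term or the added log2 change. With hypoxia 3 rose, but 1 with DESeq2, 1 without the other term and 0 with the added log2 change, and 0 fell in every setting. Of all tested genes, 647 rose with IFN-γ, against 353 (DESeq2), 239 (no other term), 1104 (unadjusted p) and 238 (added log2 change). The 149 that fell became 99 (DESeq2's size factors), 16 (DESeq2), 71 (no filter), 74 (10 counts in every library), 27 (counts divided by 2), 3 (no other term), 793 (unadjusted p) and 8 (added log2 change). With hypoxia 1115 rose, against 360 (DESeq2), 551 (counts divided by 2), 150 (no other term), 1913 (unadjusted p) and 107 (added log2 change), and the 927 that fell became 203, 321, 26, 1682 and 8 in the same order.

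The other lists (other ligands, receptors, maturation and signalling) had 12, 3, 11 and 6 genes tested and are counted together here. In the main test IFN-γ raised 4.76% and lowered 1.1% of all tested genes, and hypoxia raised 8.21% and lowered 6.83%. The 5 list genes that rose with IFN-γ became 2 (no other term, added log2 change), 5 (unadjusted p) and 4 in each of the other 6 alternatives. Those 6 all lost Cd40. The 2 that fell became 1 (DESeq2's size factors, no filter, 10 counts in every library), 0 (DESeq2, counts divided by 2, no other term, added log2 change) and 4 (unadjusted p). With hypoxia the 8 that rose became 5 (DESeq2), 7 (no filter), 6 (counts divided by 2), 12 (unadjusted p) and 0 (no other term, added log2 change). The 2 that fell became 1 (DESeq2, no filter, counts divided by 2), 0 (no other term, added log2 change) and 4 (unadjusted p).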
